A study of Mus musculus with 6 samples.

Results

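The CXC chemokine ligands Cxcl1, Cxcl2, Cxcl3, Cxcl10, Cxcl12, Cxcl13, Cxcl14, Cxcl16, Ppbp and Pf4 were followed through 6 single-cell RNA libraries of a study that edited murine dendritic cells (DCs) for wound therapy. These 10 genes were taken by name as members of the family, and they stand among 14 CXC ligand genes and 31053 genes in the matrices. Cells were kept with at least 300 genes, under 100000 unique molecular identifiers (UMIs, 1 per captured transcript) and under 10% mitochondrial UMIs. Of the 10 genes, 9 had UMIs in each culture library and 10 in each wound library.

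The first 3 libraries held DC cultures grown from mouse bone marrow, which were left untreated (untreated DCs), stimulated with vitamin D3 at 1e-06 M for 24 h on culture day 7 (VD3 stimulated DCs), or edited with Cas9 ribonucleoprotein against Ndrg2 (Ndrg2-KO DCs). The other 3 libraries held cells digested from splinted excisional skin wounds of 6-week-old C57BL/6J mice, explanted on day 10, with 5 mice per group. Those wounds had received a hydrogel seeded with control DCs, a hydrogel seeded with Ndrg2-KO DCs, or a blank hydrogel, so every wound carried a hydrogel. The labels call the control DCs untreated, whereas the methods of the study describe control cells nucleofected with non-targeting guides. The Ndrg2-KO DCs were an edited population and not a clone. Because no cultured DCs that went through nucleofection alone were analysed here, that step and the knockout cannot be told apart in the cultures, and seeded DCs were not told apart from host cells in the wounds.

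Chemokines are small secreted proteins that guide leukocytes along concentration gradients through G protein-coupled receptors. CXCL1, CXCL2, CXCL3 and the platelet protein PPBP act on CXCR2 and draw neutrophils to injured skin, whereas CXCL10 acts on CXCR3 of activated T cells and is a classical interferon target. CXCL12 acts on CXCR4 and retains progenitors and leukocytes in stroma, CXCL13 acts on CXCR5 of B cells and follicular T cells, CXCL16 is a membrane-bound ligand of CXCR6, CXCL14 is abundant in skin, and PF4 is a heparin-binding protein of platelet granules that macrophages also make.

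The genes Ppbp, Pf4, Cxcl3, Cxcl1 and Cxcl2 lie on the plus strand of chromosome 5 (GRCm38), within 137.4 kb from 90768518 to 90905938, with Cxcl15, another CXC ligand gene, between Cxcl3 and Cxcl1. Cxcl10 and Cxcl13 lie farther along chromosome 5 (92346638 to 92348889, minus strand, and 95956951 to 95961068, plus strand). Cxcl12 is on chromosome 6 (117168535 to 117181367), Cxcl16 on chromosome 11 (70453983 to 70459984) and Cxcl14 on chromosome 13 (56288643 to 56296551). Cxcl10 overlaps Art3, and Cxcl16 overlaps Zmynd15, each on the opposite strand. Cxcl2 and Cxcl3 share 80 of their 31-base words (4.30% of those of Cxcl2 and 8.11% of those of Cxcl3), so the split of reads between them is uncertain over that stretch, whereas the other 8 share none.

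Promoter sequence of the inflammatory members is shown because these 4 genes hold a motif for NF-kB, the transcription factor of inflammatory signalling. The motif searched was GGGA, any 2 bases, then TTCC, on both strands of the 250 bases before each start, and 1.21% of 32851 mouse promoters in RefSeq (GRCm38.p6) hold it. The stretches of Cxcl3 (chr5:90785981-90786100), Cxcl1 (chr5:90891125-90891244) and Cxcl2 (chr5:90903779-90903898) read along the plus strand and that of Cxcl10 (chr5:92348890-92349119) along the minus strand. Capitals mark the motif matches.
Cxcl3: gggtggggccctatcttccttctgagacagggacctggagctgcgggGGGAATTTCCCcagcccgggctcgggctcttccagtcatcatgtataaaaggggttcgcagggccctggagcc
Cxcl1: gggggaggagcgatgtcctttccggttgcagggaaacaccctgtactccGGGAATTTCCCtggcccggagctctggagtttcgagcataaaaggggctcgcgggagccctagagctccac
Cxcl2: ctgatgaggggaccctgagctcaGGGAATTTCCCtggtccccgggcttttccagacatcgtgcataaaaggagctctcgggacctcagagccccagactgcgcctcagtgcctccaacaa
Cxcl10: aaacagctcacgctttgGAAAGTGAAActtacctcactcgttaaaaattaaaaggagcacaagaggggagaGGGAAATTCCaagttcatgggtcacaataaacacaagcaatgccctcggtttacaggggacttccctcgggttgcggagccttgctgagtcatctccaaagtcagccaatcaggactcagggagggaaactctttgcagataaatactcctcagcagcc
The capital stretch is the same in Cxcl3, Cxcl1 and Cxcl2, where it holds 2 overlapping matches, 1 on each strand, and the nearest match lies 72, 70 and 96 bases before the start. In Cxcl10 the match lies 159 bases before the start, and the other capitals, 213 bases before it, mark an interferon response motif (GAAA, any 2 bases, then GAAA), which 2.98% of the promoters hold. Cxcl14 also holds the interferon motif, 172 bases before its start, and neither motif was matched in the windows of Ppbp, Pf4, Cxcl12 or Cxcl13. A match is a description of the sequence and not of binding, and Cxcl16 had no entry in the promoter table.

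The filters kept 7257 untreated, 8825 VD3 stimulated and 7969 Ndrg2-KO DCs, with 116461484 to 143627482 UMIs per library, and 1948, 5681 and 3403 cells of control DC, Ndrg2-KO DC and blank hydrogel wounds, with 29675507 to 49240341 UMIs. Median UMIs per cell were 12089 to 16316 in the cultures and 10795, 4415 and 5603 in the wounds. Ndrg2, the targeted gene, stood at 4.62, 1.42 and 0.884 CPM (UMIs per 1000000 UMIs of the library) in the untreated, VD3 stimulated and Ndrg2-KO cultures and at 6.10, 3.33 and 3.29 CPM in the wounds. It was lowest in the library labelled knockout. In the wounds it does not check the seeded cells, which were not told apart from host cells. Kept libraries shared 1 to 19 cell barcodes per pair. Each condition was 1 library, so no test between conditions was possible. Levels are given in CPM, not divided by gene length, with exact 95% Poisson intervals, ratios with exact conditional binomial intervals and shares of cells with exact binomial intervals, and all of these cover counting error only. A gene is called past 2-fold where its 2 sums together held at least 50 UMIs, and shares of cells come after thinning each cell to 2000 UMIs in cultures or 1000 UMIs in wounds, which left out 134 to 1149 culture cells and 25 to 95 wound cells per library.

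CXC ligands were far more abundant in the wounds than in the cultures, and different members dominated. The 10 genes together took 0.119%, 0.0744% and 0.166% of the UMIs of untreated, VD3 stimulated and Ndrg2-KO DCs, against 1.11%, 2.66% and 1.53% in control DC, Ndrg2-KO DC and blank hydrogel wounds. Pf4 supplied 46.6%, 39.02% and 54.5% of these UMIs in the 3 cultures and Cxcl16 26.7%, 44.3% and 22.3%, so that Cxcl16 led in VD3 stimulated DCs and Pf4 in the other cultures. Cxcl2 supplied 55.4%, 79.5% and 73.8% in the 3 wounds. The plot of levels by library shows this change of members between cultured DCs and wound tissue.

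**Figure D1:**
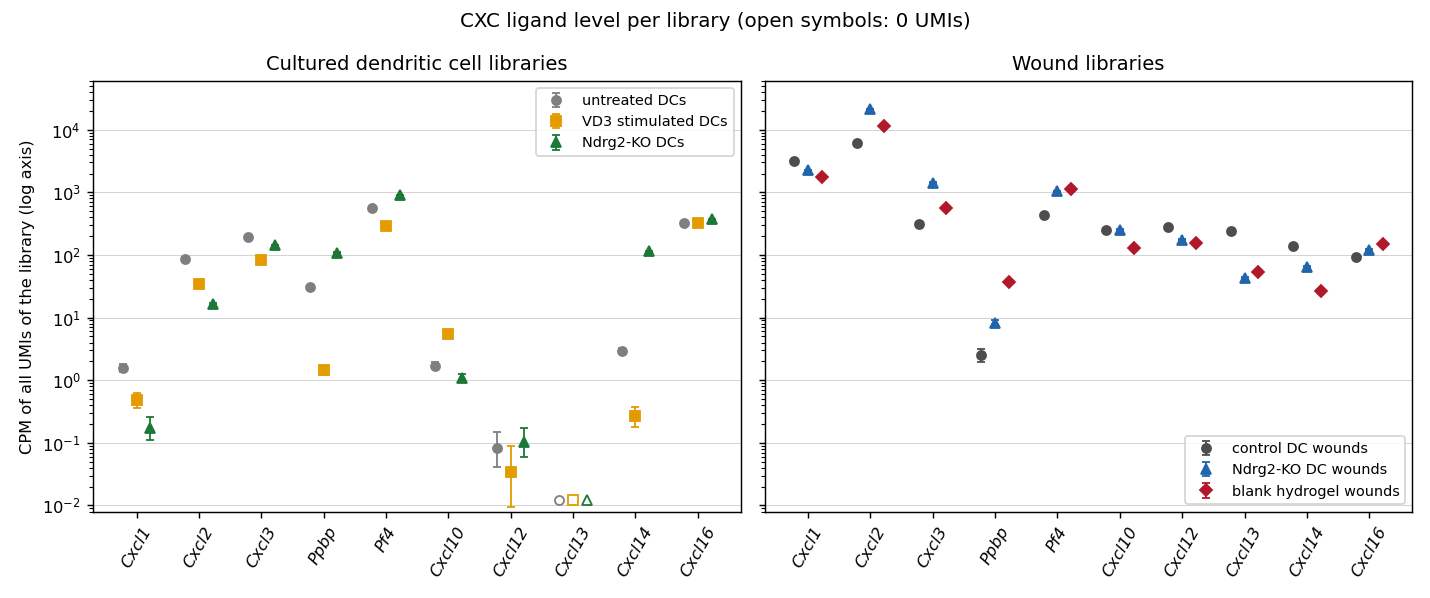
Level of each CXC ligand gene in each of the 6 libraries (CPM on a log axis, points with exact 95% Poisson intervals). Cxcl1, Cxcl12 and Cxcl13 sit at or below 1.57 CPM in the cultures and at or above 43.0 CPM in the wounds, while Cxcl16 is higher in the cultures (319 to 369 CPM) than in the wounds (92.5 to 150.1 CPM).

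Among the neutrophil-attracting ligands, Cxcl1, Cxcl2 and Cxcl3 were abundant in the wounds. Cxcl1 was at 3189.9, 2279.6 and 1756 CPM in control DC, Ndrg2-KO DC and blank hydrogel wounds and at 1.57, 0.481 and 0.174 CPM in untreated, VD3 stimulated and Ndrg2-KO DCs. Cxcl2 was at 6139.8, 21112 and 11303 CPM in the wounds and at 86.7, 34.1 and 16.3 CPM in the cultures. Control DC wounds were therefore highest for Cxcl1, whereas Ndrg2-KO DC wounds were highest for Cxcl2. Cxcl3 stood at 310.0, 1437 and 572 CPM in the wounds and at 195, 82.6 and 142.5 CPM in the cultures, where the untreated DCs were highest. Ppbp was rare in the wounds, at 2.53, 8.35 and 37.0 CPM, and reached 31.1, 1.44 and 109 CPM in the cultures.

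The remaining ligands separated into those found in both settings and those nearly confined to the wounds. Pf4 was at 434, 1059 and 1141 CPM in the wounds and 556, 290.2 and 902 CPM in the cultures, so the ranges of the 2 settings overlapped. Cxcl16 was at 92.5, 122 and 150.1 CPM in the wounds and at 319, 329 and 369 CPM in the cultures. Cxcl14 was at 140.1, 64.4 and 26.4 CPM in the wounds, and among the cultures it reached 114 CPM in Ndrg2-KO DCs but only 2.92 CPM in untreated DCs and 0.266 CPM after VD3 stimulation. The stromal and lymphoid ligands were wound genes in these libraries. Cxcl12 was at 285, 176 and 155 CPM in the wounds and at 0.0830, 0.0343 and 0.104 CPM in the cultures. Cxcl13 was at 240.2, 43.0 and 53.9 CPM in the wounds, and no UMI was found in the cultures, which allows at most 0.0278, 0.0317 and 0.0257 CPM. Cxcl10 was at 247, 255 and 130.1 CPM in the wounds and at 1.70, 5.42 and 1.09 CPM in the cultures.

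Wound cells were grouped into 15 clusters with the CXC ligand genes kept out of the clustering, and clusters were named from marker genes. Fibroblast-like cells numbered 469, 462 and 322 in control DC, Ndrg2-KO DC and blank hydrogel wounds, neutrophil-like cells 457, 2891 and 1550, macrophage-like cells 355, 596 and 364, monocyte-like cells 178, 386 and 359, and DC-like cells 14, 24 and 32. The monocyte-like cluster was led by MHC class II genes beside Ccr2, a receptor of inflammatory monocytes. A cluster of 173, 746 and 446 cells led by Mmp12, Arg1 and Mmp13, a macrophage elastase, arginase and a collagenase, expressed all 9 macrophage markers at a lower summed level (14542, 7713 and 10324 CPM) than macrophage-like cells (37509, 34195 and 30554 CPM) and was left unnamed. It is called the Arg1/Mmp12 cluster here, and Ppbp was itself among its 10 leading genes. Of the 10 ligands, 6 were highest in the same class in all 3 wounds, among 12 classes with at least 10 cells in each.

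**Figure D2:**
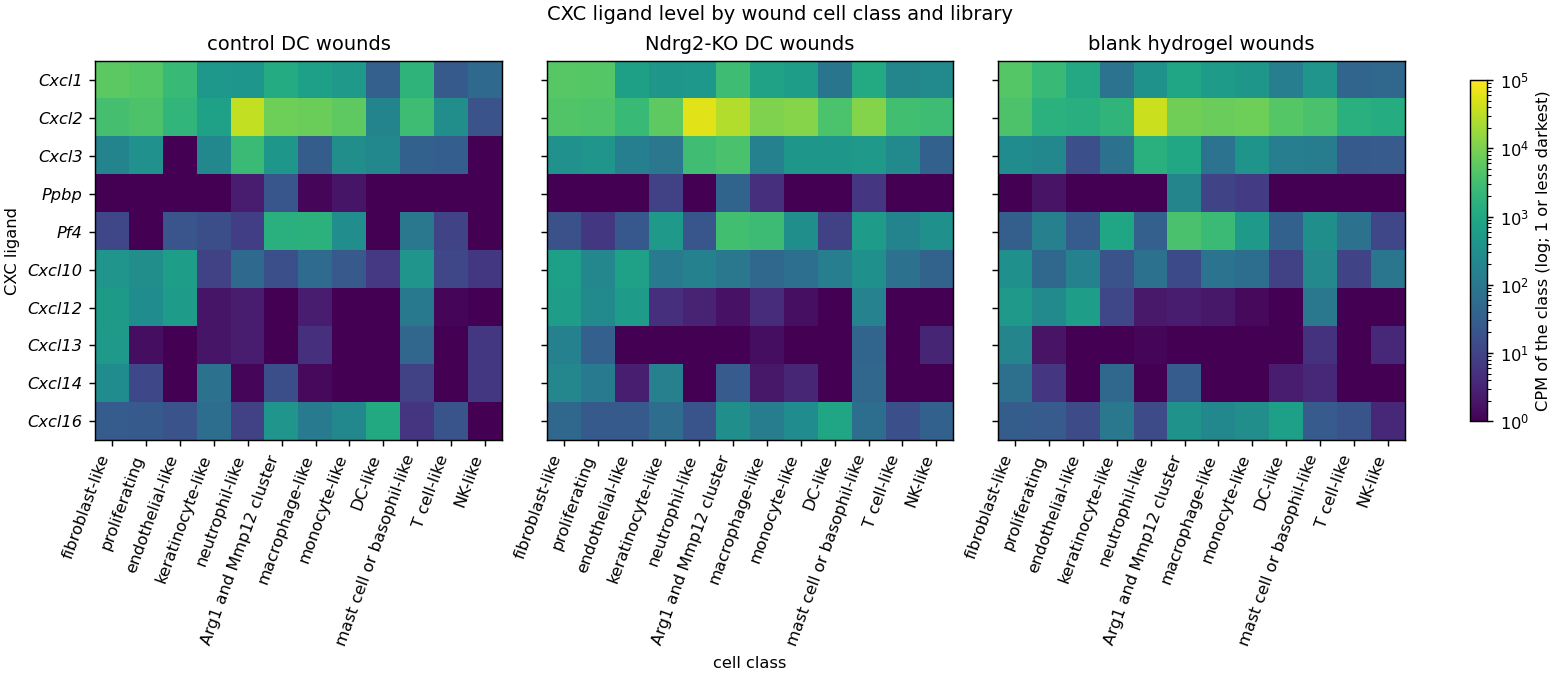
Level of each ligand in each wound class and library (colour, CPM on a log scale). Cxcl1, Cxcl12, Cxcl13 and Cxcl14 are bright in the fibroblast-like columns, Cxcl2 in the neutrophil-like columns and Cxcl16 in the DC-like columns.

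Fibroblast-like cells were the main source of the stromal ligands and of Cxcl1, and 3 members (Cxcl1, Cxcl13 and Cxcl14) were highest in them in all 3 wounds. With each wound library clustered alone, none of these 3 was, and Cxcl10 was the 1 member highest in them in all 3 wounds. Cxcl1 reached 5433, 5070.3 and 4747 CPM in fibroblast-like cells, which held 85.4%, 57.7% and 74.8% of its UMIs. The proliferating cluster came next in control DC and Ndrg2-KO DC wounds, at 4829 and 4746 CPM, and its summed fibroblast markers were at 83360 and 66529 CPM. Cxcl13 was almost confined to fibroblast-like cells, with 475, 158 and 193 CPM and 99.2%, 95.04% and 98.9% of its UMIs. Cxcl14 was at 273, 203 and 69.4 CPM there, and keratinocyte-like cells followed with 77.8, 154 and 47.6 CPM. The share of Cxcl14 UMIs in fibroblast-like cells was 97.5%, 81.6% and 72.9%, and the Arg1/Mmp12 cluster held 0.938%, 7.28% and 20.2%.

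Cxcl12 and Cxcl10 were shared by fibroblast-like and endothelial-like cells. Cxcl12 was at 531, 615 and 495 CPM in fibroblast-like cells and at 558, 568 and 636 CPM in the 27, 18 and 10 endothelial-like cells, with the order changing between libraries. Because fibroblast-like cells were more numerous, they held 93.5%, 90.8% and 88.7% of the Cxcl12 UMIs. Cxcl10 was at 412, 664 and 322 CPM in fibroblast-like cells, which held 83.7%, 67.6% and 68.6% of its UMIs, and at 611, 734 and 160 CPM in endothelial-like cells. Fibroblast-like cells thus held the larger part of 5 ligands (Cxcl1, Cxcl10, Cxcl12, Cxcl13 and Cxcl14) in every wound library.

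Neutrophil-like cells had the highest Cxcl2 level of all classes in every wound, at 34926, 59677 and 39038 CPM, and held 31.1%, 56.0% and 58.0% of its UMIs. They formed a larger cluster led by Retnlg and S100a9 and a smaller one led by Il23a, Il1a, Ccl3 and Tnf, which encode inflammatory cytokines. In the cluster led by Il23a, Cxcl2 was at 57959, 80478 and 58559 CPM, against 27003, 41165 and 30766 CPM in the cluster led by Retnlg. The cluster led by Il23a was therefore higher in all 3 wounds. The 2 neutrophil-like clusters held 353 and 104 cells in control DC wounds and 1738 and 1153 cells in Ndrg2-KO DC wounds. Cxcl2 was also high in the Arg1/Mmp12 cluster (7851, 26258 and 8269 CPM), in macrophage-like cells (7397, 10794 and 7219.9 CPM) and in monocyte-like cells (5819, 12302 and 7758 CPM).

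Cxcl2 UMIs were also found in lymphocytes, and their number moved with the library. T cell-like cells, which should lack the gene, had 294, 3023 and 1495 CPM of Cxcl2, and 9.38%, 31.5% and 27.3% of thinned cells had a UMI, at median depths of 6171, 4838 and 5822 UMIs. In neutrophil-like cells, at median depths of 3281, 2927 and 3362 UMIs, 98.7%, 99.4% and 98.6% had one. Summed neutrophil markers in T cell-like cells were at 124, 3534 and 2580 CPM, with 3, 8 and 8 of 8 markers at over 3 UMIs, so transcripts of neutrophils were more frequent in other cells of Ndrg2-KO DC and blank hydrogel wounds. DC-like cells of the wounds had 178, 3786 and 4704 CPM of Cxcl2 beside 68.3, 10807 and 7509 CPM of the neutrophil markers, and the part of these transcripts in it was not tested.

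Cxcl3 was high in neutrophil-like cells and in the Arg1/Mmp12 cluster but was not confined to them. Neutrophil-like cells had 2557, 2985 and 1511 CPM and the Arg1/Mmp12 cluster 439.9, 3729 and 969 CPM, so the cluster was above the neutrophil-like cells only in Ndrg2-KO DC wounds. Ppbp was found mainly in the Arg1/Mmp12 cluster, which held 73.3%, 84.4% and 92.6% of its UMIs, at 22.2, 40.1 and 186 CPM. After thinning, only 4, 16 and 28 wound cells had a Ppbp UMI, and the top 1% of cells held 97.3%, 92.9% and 91.9% of its UMIs. Platelet markers were at 0.622 to 1.21 CPM in the cluster, with at most 1 of 6 at over 3 UMIs.

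Pf4 marked macrophages. It was at 1612, 2622 and 2542 CPM in macrophage-like cells, at 1465, 3102 and 3740.1 CPM in the Arg1/Mmp12 cluster and at 8.62, 21.5 and 33.9 CPM in neutrophil-like cells. After thinning, 66.7%, 77.7% and 71.9% of macrophage-like cells and 50.3%, 57.2% and 61.9% of cells of the Arg1/Mmp12 cluster had a Pf4 UMI, against 0.781%, 1.70% and 8.08% of T cell-like cells. The 2 myeloid populations therefore held most Pf4 UMIs in every wound.

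Cxcl16 was highest in DC-like cells of all 3 wounds, at 1086, 891 and 663 CPM, with 50%, 66.7% and 48.4% of the 14, 24 and 31 thinned cells holding a UMI. The Arg1/Mmp12 cluster followed with 408, 303 and 359 CPM and, being larger, held 36.8%, 43.6% and 44.0% of the Cxcl16 UMIs. Monocyte-like cells had 218, 271 and 292 CPM, macrophage-like cells 117, 131 and 213 CPM, and T cell-like cells 19.7, 16.6 and 20.1 CPM. The order from DC-like cells down to macrophage-like cells was the same in the 3 libraries. In DC-like cells of Ndrg2-KO DC and blank hydrogel wounds, Cxcl16 was below the 3786 and 4704 CPM of Cxcl2 given above. These cells had 212, 439 and 135 CPM of Cxcl3 and 0, 9.48 and 35.5 CPM of Pf4, and no UMI of Ppbp, Cxcl12 and Cxcl13.

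**Figure D3:**
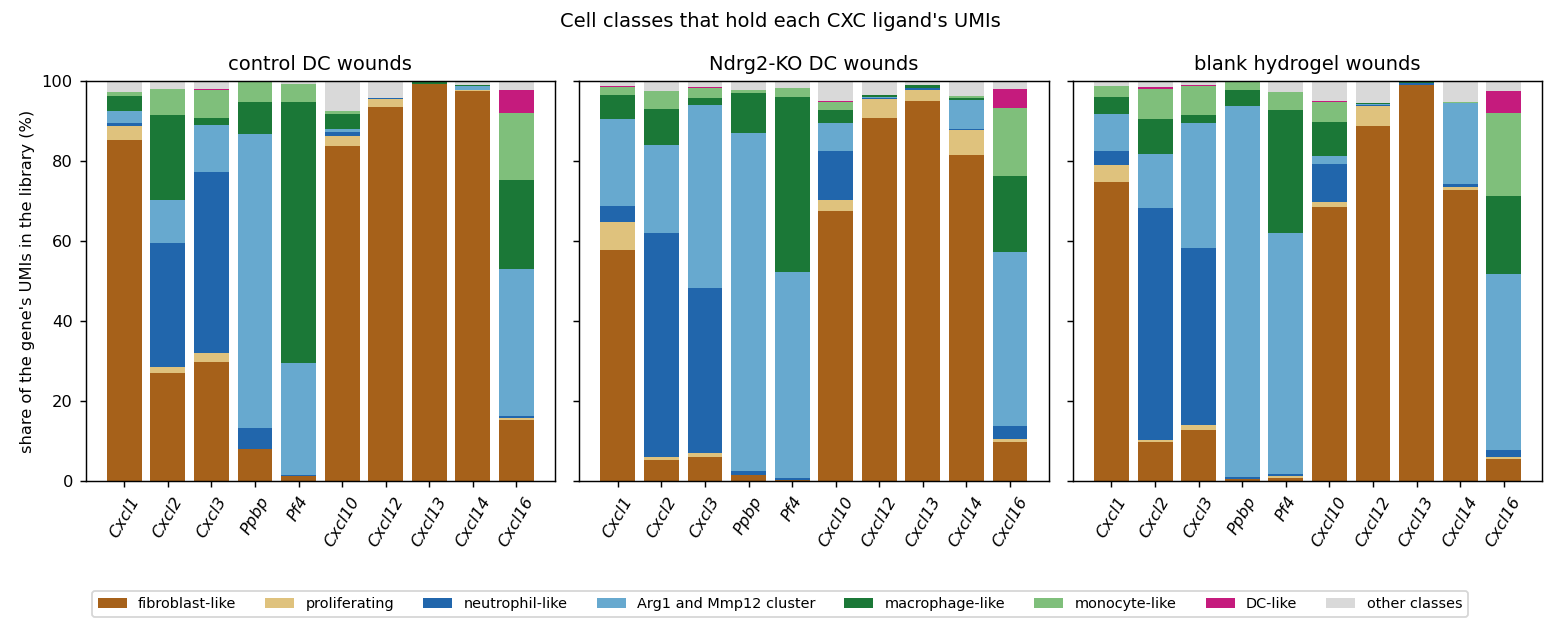
Share of each ligand's UMIs held by each wound class (stacked bars from 0 to 100%, 1 bar per ligand and library). Fibroblast-like cells fill most of the bars of Cxcl1, Cxcl10, Cxcl12, Cxcl13 and Cxcl14, and neutrophil-like cells and the Arg1/Mmp12 cluster fill a larger part of the Cxcl2 bars in Ndrg2-KO DC wounds (56.0% and 21.9%) than in control DC wounds (31.1% and 10.7%).

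Ndrg2-KO DC wounds held more of the neutrophil-attracting ligands Cxcl2, Cxcl3 and Ppbp and of Pf4 than control DC wounds, and less Cxcl13 and Cxcl14. Cxcl2 was 3.44-fold higher (log2 ratio 1.78, interval 1.77 to 1.79) and Cxcl3 4.64-fold higher (2.21, 2.18 to 2.24). Pf4 was 2.44-fold higher and Ppbp 3.30-fold higher, the latter from 411 against 75 UMIs. After thinning, 16 of 5586 Ndrg2-KO DC and 4 of 1923 control DC wound cells had a Ppbp UMI. Cxcl13 was 5.58-fold lower and Cxcl14 2.17-fold lower, whereas Cxcl1, Cxcl10, Cxcl12 and Cxcl16 lay within 2-fold, with log2 ratios of -0.48, 0.04, -0.69 and 0.40. Thus 4 of 10 members were past 2-fold higher and 2 lower, against 4.39% and 6.22% of 13358 genes, and the median log2 ratio was 0.22 for the members and -0.15 for all genes.

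The cell types in the 2 libraries differed widely, and a sum over a library cannot tell more cells of a type from more RNA per cell. Fibroblast-like cells held 50.1% of the UMIs of control DC wounds but 26.0% of those of Ndrg2-KO DC wounds, and neutrophil-like cells 5.48% and 19.8%. When the class levels of Ndrg2-KO DC wounds were weighted by the class shares of control DC wounds, a choice made after the data were seen, only Cxcl3 (log2 ratio 1.25) and Cxcl13 (-1.57) stayed past 2-fold. At those shares the ratios were 0.84 for Cxcl2, 0.92 for Ppbp, 0.84 for Pf4, 0.66 for Cxcl10, 0.20 for Cxcl12 and -0.34 for Cxcl14. Cxcl12 thereby turned from a ratio below 0 to one above it, as the plot of ratios at fixed class shares shows.

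**Figure D4:**
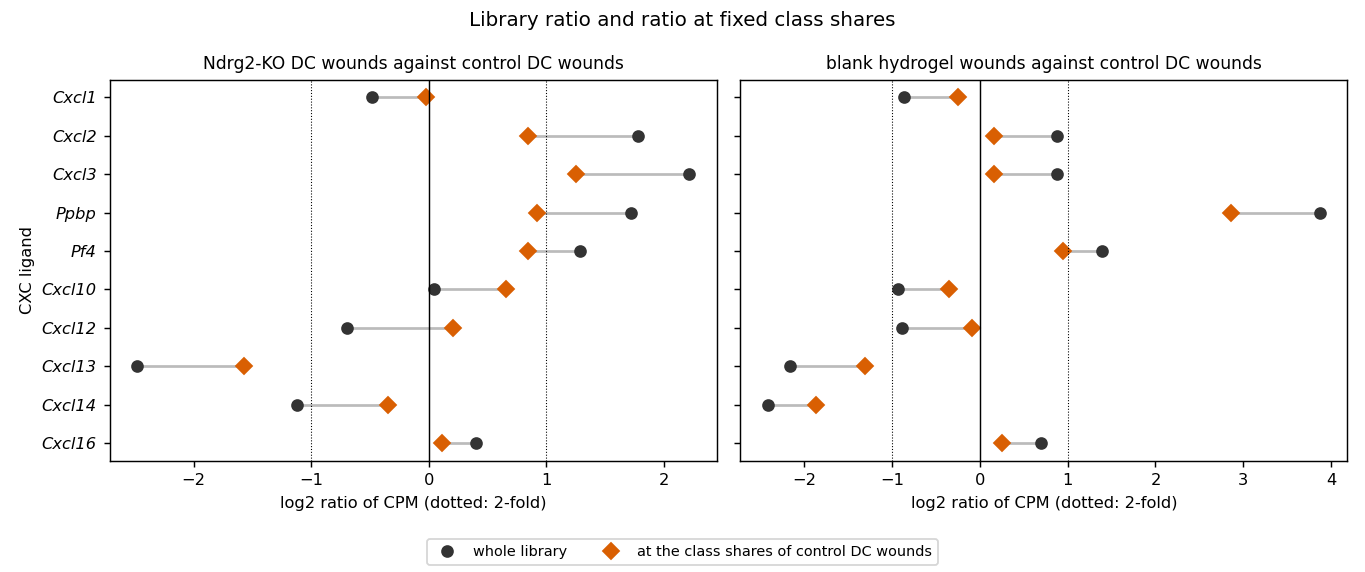
Log2 ratio of each ligand for Ndrg2-KO DC wounds (left) and blank hydrogel wounds (right) against control DC wounds, over whole libraries and at the class shares of control DC wounds. In Ndrg2-KO DC wounds Cxcl2 moves from 1.78 to 0.84 and Cxcl12 from -0.69 to 0.20, while Cxcl3 (1.25) and Cxcl13 (-1.57) remain past 1 or -1.

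Within fibroblast-like cells of Ndrg2-KO DC wounds, Cxcl13 was 3.02-fold lower than in control DC wounds (log2 ratio -1.59), the only one of 9 tested members past 2-fold, against 5.3% of 10993 genes. Cxcl3 and Cxcl10 had ratios of 0.90 and 0.69, Cxcl14 of -0.43, Cxcl12 of 0.21 and Cxcl1 of -0.10. Fibroblast-like cells of the 2 libraries thus had close levels of Cxcl1, and the lower Cxcl1 of the whole Ndrg2-KO library stood beside its smaller fibroblast share. After thinning, 19.0% and 10.6% of fibroblast-like cells had a Cxcl13 UMI.

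Within neutrophil-like cells, Cxcl2 was 1.71-fold higher in Ndrg2-KO DC than in control DC wounds (log2 ratio 0.77) and Cxcl3 1.17-fold higher (0.22). The cluster led by Il23a made up 104 of 457 neutrophil-like cells in control DC wounds and 1153 of 2891 in Ndrg2-KO DC wounds, so the class ratios include this shift. Cxcl2 went from 57959 to 80478 CPM in that cluster and from 27003 to 41165 CPM in the one led by Retnlg. Cxcl10 was 3.07-fold higher, and Cxcl16 and Pf4 were past 2-fold higher from 15 and 14 UMIs in control DC wounds, so 3 of 6 tested members were called, against 8.66% of 5453 genes. Pf4 in neutrophil-like cells was at 21.5 against 8.62 CPM, beside 182 against 10.4 CPM in T cell-like cells, which should lack it. Thinned cells with a Pf4 UMI were 1.996% against 0.887% of neutrophil-like cells and 1.70% (4 of 235 cells) against 0.781% of T cell-like cells, so its call in neutrophil-like cells cannot be told apart from background. The part of background in the Cxcl10 and Cxcl16 calls was not tested. Within macrophage-like cells, 1 of 7 tested members was past 2-fold, against 3.89% of 9173 genes, namely Cxcl3, with 1345 UMIs against 158 and a 5.12-fold higher level. The 2 clusters of this class went opposite ways, with a Cxcl3 log2 ratio of 2.89 in the larger cluster led by Il10 and Cbr2 and of -1.29, from 34 against 41 UMIs, in the cluster led by Cd209f and Lyve1. Summed neutrophil markers in macrophage-like cells were at 393, 2334 and 1003 CPM in control DC, Ndrg2-KO DC and blank hydrogel wounds, and their part in this difference was not tested.

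Most of the tested members were higher in the Arg1/Mmp12 cluster of Ndrg2-KO DC wounds than in that of control DC wounds. Cxcl3 was 8.48-fold higher there (log2 ratio 3.08, interval 2.996 to 3.17), Cxcl10 5.84-fold, Cxcl2 3.34-fold and Cxcl1 2.33-fold, and Pf4 was also past 2-fold, which makes 5 of 8 tested members, against 7.51% of 8272 genes. In the cluster, 22.0%, 64.5% and 30.9% of thinned cells had a Cxcl3 UMI in control DC, Ndrg2-KO DC and blank hydrogel wounds, against 0.781%, 6.81% and 1.01% of T cell-like cells. Neutrophil markers in the cluster were at 254, 6299 and 2199 CPM, and their part in these ratios was not tested. In monocyte-like cells, 2 of 6 tested members, Cxcl2 and Cxcl10, were past 2-fold higher, against 2.95% of 6757 genes, at 12302 against 5819 CPM and 65.9 against 24.9 CPM. Neutrophil markers in monocyte-like cells were at 8147 against 2335 CPM, and their part in these ratios was not tested.

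Blank hydrogel wounds had more Ppbp and Pf4 and less Cxcl13 and Cxcl14 than control DC wounds, the library that both wound comparisons share. Ppbp was 14.6-fold higher (1290 against 75 UMIs) and Pf4 2.63-fold higher. After thinning, 28 of 3338 blank hydrogel and 4 of 1923 control DC wound cells had a Ppbp UMI. Cxcl13 was 4.46-fold lower and Cxcl14 5.31-fold lower. Thus 2 of 10 members were past 2-fold higher and 2 lower, against 3.71% and 3.89% of 13137 genes, and the median log2 ratio was -0.08 for the members and -0.04 for all genes. The ratios of Cxcl2 and Cxcl3 were 0.88 and 0.88, beside 1.78 and 2.21 in Ndrg2-KO DC wounds, and those of Cxcl1, Cxcl10 and Cxcl12 were -0.86, -0.93 and -0.88. At the class shares of control DC wounds, Ppbp (2.86), Cxcl13 (-1.31) and Cxcl14 (-1.87) stayed past 2-fold, and Pf4 was at 0.95.

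Within fibroblast-like cells of blank hydrogel wounds, Cxcl14 was 3.93-fold lower and Cxcl13 past 2-fold lower (log2 ratios -1.97 and -1.30), and Pf4 was past 2-fold higher at low levels (33.0 against 11.8 CPM), which makes 3 of 9 tested members, against 3.18% of 10712 genes. Cxcl13 and Cxcl14 were therefore lower within the class as well as in the whole library. Within neutrophil-like cells, 1 of 6 tested members (Pf4, at 33.9 against 8.62 CPM) was called, against 8.74% of 5047 genes, whose median log2 ratio was 0.24. T cell-like cells had 72.6 against 10.4 CPM of Pf4, with a UMI in 8.08% against 0.781% of thinned cells. The corresponding shares were 2.80% against 0.640% in fibroblast-like cells and 3.74% against 0.887% in neutrophil-like cells. The part of background in both Pf4 calls was not tested. Summed macrophage markers were at 534 against 599 CPM in fibroblast-like and 375 against 236 CPM in neutrophil-like cells. Within macrophage-like cells, Cxcl3 and Ppbp were past 2-fold higher, 2 of 7 tested members, against 1.66% of 8420 genes. In the Arg1/Mmp12 cluster, Ppbp was 8.36-fold higher and Pf4 and Cxcl3 were past 2-fold higher, 3 of 8 tested members, against 3.42% of 8039 genes, while Cxcl2 had a ratio of 0.07. In monocyte-like cells, 1 of 6 tested members (Cxcl10) was past 2-fold higher, against 2.7% of 6785 genes. Neutrophil markers were at 1003 against 393 CPM in macrophage-like cells, 2199 against 254 CPM in the Arg1/Mmp12 cluster and 3848 against 2335 CPM in monocyte-like cells, and their part in these ratios was not tested.

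The DC cultures fell into 15 clusters, and 10 of them drew over 90% of their cells from 1 library, so clusters are described within their library and not compared between conditions. Mature DC-like cells, marked by the migration receptor gene Ccr7 and by Ccl22 and Il4i1, formed separate main clusters of 2594 untreated, 3294 VD3 stimulated and 1838 Ndrg2-KO cells. Each of these was the main Cxcl16 cluster by level among clusters of over 200 cells of its library, with 694, 612 and 851 CPM, and 73.4%, 68.0% and 77.7% of thinned cells had a UMI. In the same clusters Pf4 was at 8.18, 7.74 and 44.8 CPM, Cxcl2 at 2.01, 0.729 and 0.760 CPM and Cxcl3 at 4.62, 0.851 and 5.57 CPM. The main mature DC-like clusters of all 3 cultures thus had Cxcl16 with little Pf4, Cxcl2 and Cxcl3.

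The remaining culture clusters carried Pf4, Cxcl3, Cxcl2 and Ppbp. Among untreated DCs, an unnamed cluster of 1108 cells led by Plet1 had 1354 CPM of Pf4, 577 CPM of Cxcl3, 167 CPM of Cxcl2 and 96.2 CPM of Ppbp. Cxcl3 was among the genes that lead this cluster. A proliferating cluster of 1684 cells led by Ly6c2 had 577, 197, 116 and 30.6 CPM of the same genes. Cxcl2 was higher still, at 189 CPM, in a neutrophil-like cluster of 922 cells led by Ngp. Together the Plet1 and Ly6c2 clusters held 36.0% and 55.0% of the Cxcl2 UMIs and 57.7% and 40.5% of the Ppbp UMIs of untreated DCs.

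Among VD3 stimulated DCs, a macrophage-like cluster of 1453 cells led by Gdf15 had 631 CPM of Pf4, 272 CPM of Cxcl3 and 73.6 CPM of Cxcl2, but 3.57 CPM of Ppbp. The neutrophil-like cluster led by Ngp had 243 CPM of Cxcl2. A cluster of 1084 cells led by Prtn3, which expressed neutrophil, granulocyte-monocyte progenitor, macrophage and proliferation markers and is given no name, held 390 of the 631 Cxcl10 UMIs, at 14.3 CPM. Among Ndrg2-KO DCs, the premature DC-like cluster of 4020 cells led by Arg1 and Apoe had 1099 CPM of Pf4, 172 CPM of Cxcl3, 150.3 CPM of Cxcl14 and 142 CPM of Ppbp, and a proliferating cluster of 1063 cells led by Rrm2 had 1173, 171, 120.5 and 117 CPM. These 2 clusters held 76.0% and 20.5% of the Cxcl14 UMIs and 75.1% and 20.8% of the Ppbp UMIs of the library.

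**Figure D5:**
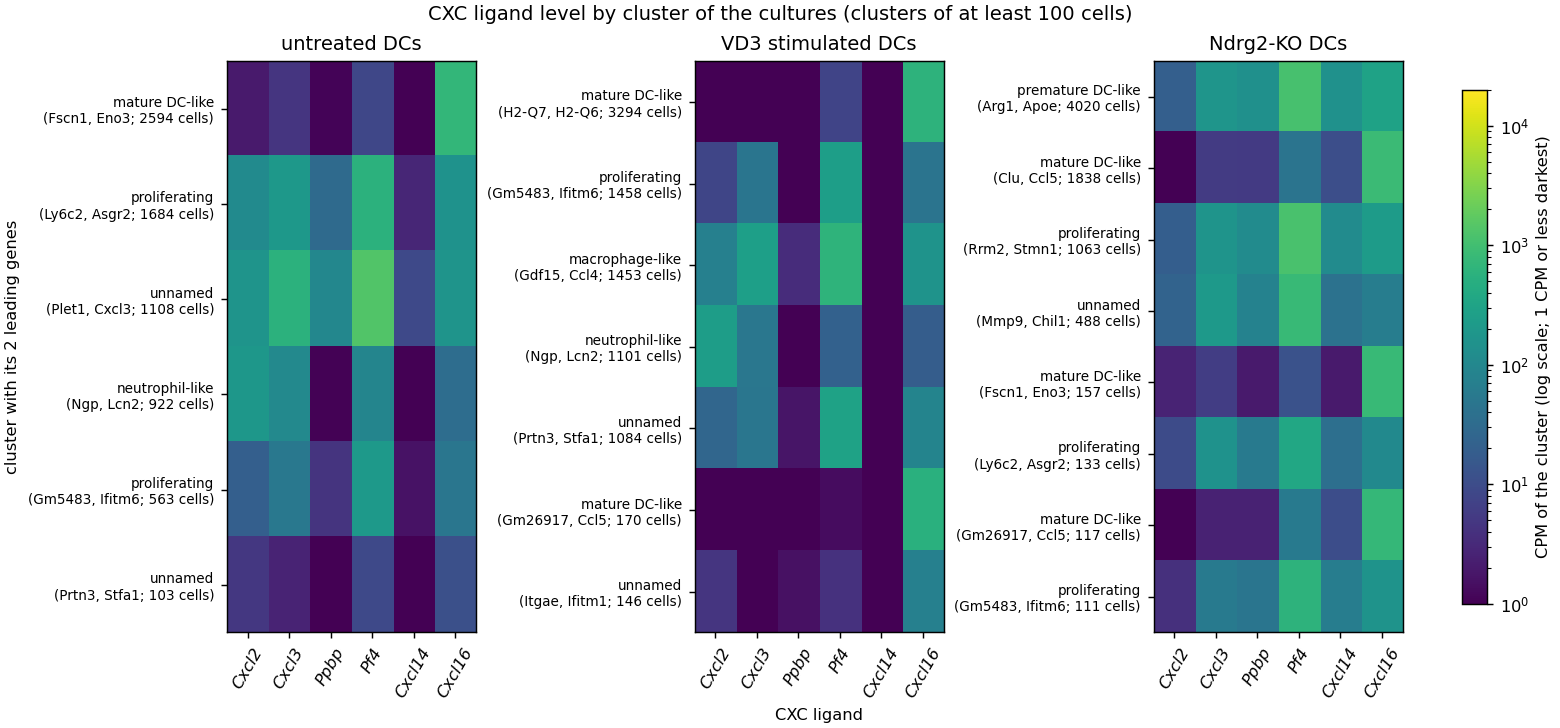
Level of 6 ligands in the clusters of at least 100 cells of each culture library (colour, CPM on a log scale, clusters named by class and leading genes). Cxcl16 is brightest in the mature DC-like clusters (527 to 851 CPM), and Cxcl14 is bright in the premature DC-like and proliferating clusters of Ndrg2-KO DCs (150.3 and 120.5 CPM) and at most 8.76 CPM in clusters of the other cultures.

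Ppbp and Pf4 were found in the same cultured cells. After thinning, 83.2%, 76.5% and 85.9% of cells with a Ppbp UMI also had a Pf4 UMI in untreated, VD3 stimulated and Ndrg2-KO DCs, against 18.4%, 10.8% and 41.4% of cells without one. A few cells had extreme Pf4 counts, with 4 untreated and 2 VD3 stimulated cells holding at least 500 Pf4 UMIs and 9.25% and 15.5% of all Pf4 UMIs of their library. All 6 lay in a small basophil-like cluster and held 6 of 6 platelet markers in each library, with summed levels of 6718 and 2409 CPM against 1.43 and 2.84 CPM in the other cells. Without them, Pf4 was at 505 and 245 CPM, and the 1 such cell among Ndrg2-KO DCs held no platelet marker UMI.

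VD3 stimulated DCs had less of the neutrophil-attracting ligands and of Cxcl14 than untreated DCs, and more Cxcl10. Ppbp was 21.6-fold lower (log2 ratio -4.43, interval -4.66 to -4.21) and Cxcl14 10.97-fold lower, from 31 against 387 UMIs. Cxcl1, Cxcl2 and Cxcl3 were 3.26-fold, 2.54-fold and 2.36-fold lower, the first at very low levels (56 against 208 UMIs). Cxcl10 was 3.18-fold higher, Pf4 had a ratio of -0.94, and Cxcl16 one of 0.05. Without the cells of at least 500 Pf4 UMIs, a choice made after the data were seen, the Pf4 ratio was -1.04 and 7 members in place of 6 were past 2-fold. Thus 1 of 8 tested members was past 2-fold higher and 5 lower, against 4.18% and 7.44% of 13113 genes, and the median log2 ratio was -1.29 for the members and -0.08 for all genes. Among the 3125 untreated and 3619 VD3 stimulated cells under 5% mitochondrial UMIs, 2 of 7 tested members (Ppbp and Cxcl14) were past 2-fold, and Cxcl3 was at 0.02.

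Ndrg2-KO DCs had much more Cxcl14 than untreated DCs, more Ppbp, and less Cxcl1 and Cxcl2. Cxcl14 was 39.02-fold higher (log2 ratio 5.29, interval 5.14 to 5.43), and 14.1% of thinned Ndrg2-KO DCs had a UMI against 0.442% of untreated DCs (43.4% and 2.98% before thinning). Ppbp was 3.51-fold higher, with a UMI in 7.16% against 2.46% of thinned cells (20.5% and 8.06% before thinning). Cxcl2 was 5.31-fold lower and Cxcl1 9.01-fold lower, from 25 against 208 UMIs. Pf4, Cxcl3, Cxcl10 and Cxcl16 had ratios of 0.70, -0.45, -0.64 and 0.21, although Pf4 was found in 44.5% of thinned Ndrg2-KO DCs against 20.0% of untreated DCs (68.3% and 35.6% before thinning).

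Of 8 tested members, 2 were past 2-fold higher and 2 lower in Ndrg2-KO DCs, against 10.2% and 9.28% of 13329 genes, and the median log2 ratio was -0.12 for the members and -0.06 for all genes. Ndrg2-KO and VD3 stimulated DCs share the untreated library as their control, and their ratios for Ppbp were 1.81 and -4.43, for Cxcl14 5.29 and -3.46, and for Cxcl2 -2.41 and -1.35. Neutrophil markers of the cultures summed to 5135, 5994 and 395 CPM in the untreated, VD3 stimulated and Ndrg2-KO cultures, and their part in the Cxcl2 difference was not tested. Without the proliferating, neutrophil-like, basophil-like and Prtn3-led clusters, a choice made after the data were seen, the Cxcl2 ratio of Ndrg2-KO DCs was -1.98 and that of Cxcl14 was 5.13. Cells under 5% mitochondrial UMIs were 1721 of 7969 Ndrg2-KO and 3125 of 7257 untreated DCs. Among them, the ratio of Cxcl3 turned to 1.13 and that of Pf4 rose to 1.06.

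The receptors of these ligands differed in the classes where they were highest in the wounds, and some classes held several. Cxcr2, the receptor of CXCL1, CXCL2 and CXCL3, was at 841, 439 and 579 CPM in neutrophil-like cells, where Cxcr1 was at 33.2, 29.8 and 30.2 CPM. Cxcr4, the receptor of CXCL12, was spread over many classes. In the 3 wounds it was at 528, 251 and 520 CPM in the Arg1/Mmp12 cluster. Monocyte-like cells had 346, 321 and 474 CPM and neutrophil-like cells 318, 188 and 391 CPM. Cxcr6, the receptor of CXCL16, was at 418, 418 and 318 CPM in T cell-like cells, and Ackr3, a scavenger of CXCL12, was at 442, 462 and 423 CPM in fibroblast-like cells. Over whole libraries, 3 of 8 receptors (Cxcr1, Cxcr2 and Cxcr5) were past 2-fold higher and 0 lower in Ndrg2-KO DC wounds, with Cxcr2 at 101 against 49.7 CPM, against 4.39% and 6.22% of all genes. Neutrophil-like cells held 19.8% against 5.48% of the UMIs, and within them the log2 ratios were -0.16 for Cxcr1, -0.94 for Cxcr2 and -0.30 for Cxcr5, the last from 39 against 8 UMIs, under the minimum of 50. In blank hydrogel wounds 3 of 8 receptors were higher and 0 lower, against 3.71% and 3.89% of all genes. Within neutrophil-like cells of blank hydrogel wounds, which held 16.8% of the UMIs, Cxcr1 and Cxcr2 had ratios of -0.14 and -0.54, and Cxcr5 was past 2-fold higher (log2 ratio 1.10, from 62 against 8 UMIs). In the cultures, Cxcr4 and Ackr3 were past 2-fold higher and Cxcr2 lower in Ndrg2-KO DCs, of 3 tested, against 10.2% and 9.28% of all genes. Ackr3 had 189 UMIs against 1, so it reached the minimum of 50 UMIs only through the Ndrg2-KO library.

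Genes of NF-kB and interferon signalling were counted beside the ligands. Of 10 genes for NF-kB feedback and inflammation, 4 were past 2-fold higher and 0 lower in Ndrg2-KO DC wounds, namely Il1a (9.80-fold), Il1b (4.85-fold), Tnf (4.90-fold) and Nfkbia (2.14-fold), and 3 higher and 0 lower in blank hydrogel wounds. The shares of all genes past 2-fold higher and lower were 4.39% and 6.22% in the first comparison and 3.71% and 3.89% in the second. The list had a median log2 ratio of 0.88 and 0.46, and all genes had one of -0.15 and -0.04. Within neutrophil-like cells, whose share of UMIs differed as given above, 2 of 10 genes (Il1a, log2 ratio 1.35, and Tnf, 1.11) were past 2-fold in Ndrg2-KO DC wounds and 0 in blank hydrogel wounds, against 8.66% and 8.74% of genes either way. Both genes lead the cluster led by Il23a, which made up 104 of 457, 1153 of 2891 and 371 of 1550 neutrophil-like cells in control DC, Ndrg2-KO DC and blank hydrogel wounds. In the Arg1/Mmp12 cluster of Ndrg2-KO DC wounds, Il1a, Il1b, Tnf and Nfkbia had log2 ratios of 3.23, 3.26, 2.01 and 1.31. There 7.51% of 8272 genes were past 2-fold either way. In macrophage-like cells the same genes had ratios of 1.58, 2.33, -0.0008 and 0.28, against 3.89% of 9173 genes. The part of neutrophil transcripts in these ratios was not tested. Of 8 interferon-induced genes, 4 and 2 were past 2-fold higher in the 2 wound comparisons and 0 lower, and in Ndrg2-KO DCs 6 were higher and 0 lower than in untreated DCs, against 10.2% and 9.28% of all genes. In VD3 stimulated DCs 1 of the 8 was higher and 1 lower, against 4.18% and 7.44% of all genes, and their median was -0.76 on the log2 scale. In the cultures, the NF-kB list had 3 of 10 genes higher and 0 lower in VD3 stimulated DCs, beside the same shares of all genes. In Ndrg2-KO DCs it had 1 of 10 higher, close to the 10.2% of all genes, and 3 lower, against 9.28%.

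The genes whose levels followed each ligand most closely over 36 sums of wound classes and libraries are given as a description, since the sums share libraries. Among 9636 genes, the closest to Cxcl2 was Tnfaip2 (Pearson r = 0.945), to Cxcl1 Fndc3b (0.910) and to Cxcl12 Fbxl7 (0.976). Pf4 was followed by C3ar1 (0.938), Trem2 (0.922) and C1qa (0.920), which are macrophage genes. Cxcl3 was followed by Slc16a3 (0.873), Prdx5 (0.859) and Ptgs2 (0.856), Cxcl13 by Cilp (0.893) and Cxcl16 by Flrt3 (0.889). For Cxcl14 (Sox9, 0.818), Cxcl10 (Map1b, 0.803) and Ppbp (Fam20c, 0.757) the closest gene was less alike.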

How the data were processed

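Single-cell RNA libraries (10x 3' v3) of 3 DC cultures and 3 wound groups were used, 1 library per condition. The authors deposited raw UMI counts per gene and cell; the file headers name Cell Ranger 3.1.0 for the DC cultures and 6.0.0 for the wounds, and the submitters' processing notes name Seurat 3.1.1 and mm9, where the study's methods name mm10, so gene positions were matched by gene ID to GRCm38. Sums of counts per library, class or cluster were given as CPM with exact Poisson intervals; the floor for folds against 0 was 3 counts. Cells were clustered in each set of 3 libraries with Seurat 5.3.0 in R 4.3.3 (2000 variable genes without the CXC ligands, 15 principal components, 15 neighbours, Louvain resolution 0.5). A cluster was named from at least 3 markers at 50 CPM or more and 2-fold above the other cells; the added condition on the list's share and the leading genes was set after the clusters were seen. Doublets were not removed, because Scrublet in scanpy 1.11.5 called at most 0.8727% of cells in any library and is taken not to have worked. Likeness between genes was Pearson's r of log2(CPM + 1) over class sums, for members with at least 200 UMIs and genes with at least 500 UMIs. Values were computed with Python 3.11.15 and SciPy 1.17.1, and the interval code was tested on simulated data. Named genes were the 10 members, the receptors and the pathway lists, and the 3 closest genes of each member at most. The members and lists were chosen with earlier results of these data known. Alternatives covered normalization, filters, doublet scores, clustering and class shares. Depth was 29675507 to 143627482 kept UMIs per library, and intervals cover counting error only. Columns for hashtags held 0 UMIs. Seeded cells, spatial or protein data were not analysed here.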

Additional observations from a re-analysis of the deposited data

Results flagged for a closer look

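The Cxcl3 difference between Ndrg2-KO DC and control DC wounds went opposite ways in the 2 macrophage-like clusters, and the difference was not tested because each condition was 1 library. Its log2 ratio was 2.36 in macrophage-like cells together and 3.08 in the unnamed Arg1/Mmp12 cluster. Within the macrophage-like class it was 2.89 in the larger cluster led by Il10 and Cbr2 and -1.29 in the smaller cluster led by Cd209f and Lyve1, the latter from 34 against 41 UMIs with a counting interval of -1.99 to -0.60.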

How the results depend on the processing

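No paired analysis was possible because each condition was 1 library and the replicate numbers came from accession order. Of 56 alternatives to the counts of members past 2-fold and of ligands highest in a class, 53 kept the count within 1.5 times. With only cells under 5% mitochondrial UMIs, 2 of 7 tested members (Ppbp and Cxcl14) were past 2-fold in VD3 stimulated against untreated DCs, in place of 6, and the log2 ratio of Cxcl3 turned to 0.0202. In that setting the VD3 ratios of Cxcl2, Pf4 and Cxcl10 were -0.36, 0.06 and 0.66, and 5 of 7 tested members were past 2-fold in Ndrg2-KO DCs. At the class shares of control DC wounds, 2 members were past 2-fold in Ndrg2-KO DC wounds in place of 6. With each wound library clustered alone, 1 member (Cxcl10) was highest in fibroblast-like cells in all 3 wounds in place of 3. The cause was not tested for any of these. Cxcl14 in Ndrg2-KO DC wounds was at -0.95 with median-ratio size factors and at -0.90 without the highest doublet scores. Of 36 ratios under 378 alternatives, 20 were past 2-fold as reported, 11 of these in every alternative, and 1 changed sign. Levels of a few UMIs, as for Cxcl12 in cultures, and classes of 10 to 32 cells limit what the depth can show.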
